A study of Mus musculus with 6 samples.

Results

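The genes described here encode hnRNPs, SR proteins and other proteins with arginine-glycine-rich stretches, a class that holds many known substrates of the arginine methyltransferase PRMT1. They were taken by symbol from a fixed list of 43 names, and all 43 were found among the 49492 gene symbols of the deposited table and passed the filter on low counts. RNA was sequenced from palatal shelves, the outgrowths that form the roof of the mouth, of E14.5 mouse embryos on C57BL. In the 3 controls both copies of Prmt1 carried loxP sites (PRMT1 fl/fl), and the 3 deletion libraries had Wnt1-Cre on top of the same alleles (Wnt1-Cre; PRMT1 fl/fl). Wnt1-Cre acts in the neural crest, the source of most palatal mesenchyme, so epithelium, muscle, vessels and blood in the same shelves are expected to keep the gene. No library carried Cre without the floxed alleles, so a difference between groups can include an effect of Cre. Nothing in the labels says that each library came from its own embryo, so part of the spread behind the p-values may be technical. In this bulk tissue, fewer cells of a type and less RNA per cell cannot be told apart.

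PRMT1 places asymmetric dimethyl groups on arginine, most often where arginine is followed by glycine. Heterogeneous nuclear ribonucleoproteins (hnRNPs) coat new transcripts and steer splicing, export and stability. SR proteins carry serine-arginine repeats and mostly promote exon inclusion, and many hnRNP and SR genes limit their own output through alternative exons that send the transcript to decay. Methylation changes these proteins after translation, and the libraries measure only their mRNA. The series compared the groups to find genes that change when Prmt1 is lost, and for this class the comparison asks whether the mRNA of candidate substrates shifts with the enzyme.

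The class can be read in the coding sequences. Its genes were chosen as hnRNP, SR and arginine-glycine-rich, so a higher share of such runs than in all genes is part of that choice. In the GENCODE M21 transcripts (GRCm38), 21 of the 43 genes held 3 or more in-frame RGG codon triplets, that is an arginine codon followed by a pair of glycine codons, against 0.566% of 21562 protein-coding genes. The number was 22 in Ewsr1, 19 in Taf15 and 12 in Fbl, and 11 genes had none, among them Hnrnpc, Hnrnph1, Nono and 4 of the 6 SR genes. The SR genes instead held arginine-serine codon pairs, 14 to 37 each, and 10 or more such pairs were present in 7 of the 43 genes and in 3.13% of all. The windows of 30 codons richest in these runs are shown for the nucleolar methyltransferase Fbl, for Taf15, for Hnrnph3, the gene that passed the test below, and for the SR gene Srsf6. Capitals mark RGG triplets in the first 3 and arginine-serine pairs in the last.
Fbl: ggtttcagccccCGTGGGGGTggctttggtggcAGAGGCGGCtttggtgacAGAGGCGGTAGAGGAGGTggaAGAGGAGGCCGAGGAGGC
Taf15: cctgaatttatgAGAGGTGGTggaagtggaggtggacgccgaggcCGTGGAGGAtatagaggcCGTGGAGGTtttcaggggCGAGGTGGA
Hnrnph3: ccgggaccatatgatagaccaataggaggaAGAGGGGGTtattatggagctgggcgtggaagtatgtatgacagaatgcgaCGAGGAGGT
Srsf6: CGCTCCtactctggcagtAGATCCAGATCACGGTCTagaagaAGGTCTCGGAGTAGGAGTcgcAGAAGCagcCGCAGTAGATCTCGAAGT
These are codons 4 to 33 of Fbl, 320 to 349 of Taf15, 111 to 140 of Hnrnph3 and 189 to 218 of Srsf6, with 6, 4 and 2 RGG triplets and 11 arginine-serine pairs.

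The column headings number the controls 212, 213 and 220 and the deletion libraries 208, 211 and 221, and each held 44919889 to 50022829 estimated counts. Levels are scaled counts per 1000000 (CPM). Controls 212 and 213 stood apart by sex, with 15.5 and 16.0 CPM of Xist against 3384 to 4487 in the other 4 libraries. Control 220 was therefore the only control of the same sex as the deletion libraries, and the controls came from at least 2 embryos. Palate mesenchyme markers were detected for 8 of 8 genes, at 1714 to 1796 CPM summed in controls and 1809 to 1879 in deletion libraries. The sums did not overlap. Of the 8 genes 1 was called higher, Barx1 (log2 fold change 0.44, edgeR adjusted p = 0.00275), and 0 lower. Prmt1 itself (chromosome 7, 44975989 to 44986568, mm10, minus strand) measured 257.9, 249.7 and 246.3 CPM in control and 200.9, 205.5 and 217.3 CPM in deletion tissue, without overlap. It fell by 0.27 ± 0.05 on the log2 scale (SE, n = 3 each; adjusted p = 0.0113 in edgeR), which is 1.21-fold. That call was lost without control 213, deletion 208 or deletion 211 and with sex as a covariate (edgeR adjusted p = 0.0674, 0.0638, 0.0567 and 0.177).

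The mRNAs of the class were abundant and nearly level between the groups. Hnrnph3 was the 1 gene of 43 that passed the threshold (edgeR quasi-likelihood test, Benjamini-Hochberg adjusted p under 0.05). None fell. Of the 19284 genes tested, 7.01% were called, 3.65% higher and 3.37% lower. The median log2 fold change (deletion minus control) was 0.02 over the 43 genes and -0.00 over all genes, with 26 above and 17 below 0. With sex as a covariate the median of the 43 was -0.03, so most of them then lay below 0. Without that covariate, absolute log2 fold changes were under 0.1 in 33 of the 43 genes. The share was 62.3% among the 7107 tested genes in the same range of mean level. The 95% interval included 0 for 36 genes, and for 38 it lay wholly within a 1.25-fold change in either direction. The remaining 5 were Hnrnph3, Hnrnph1, Taf15, Cirbp and Rbm15. These intervals leave sex out, although controls 212 and 213 differ in sex from every deletion library. At an unadjusted p under 0.05 there were 7 genes, against 22.5% of all genes: Hnrnph3, Hnrnpa1, Hnrnph1, Hnrnpm, Taf15, Srsf5 and Srsf6, each with a positive log2 fold change. Groups did not overlap in 12 genes, 8 higher (background 14.1%) and 4 lower (background 13.5%), a share near that of all tested genes (27.5%). The count of 1 became 0 without control 213 (where 1.81% of all genes were called) or with sex as a covariate (0.669%), 2 without control 220 (7.04%) and 4 without deletion 221 (9.45%). It was 2 without a filter on low counts (6.29%) and 6 with the DESeq2 Wald test (11%), which called Hnrnph3, Hnrnpa1, Hnrnpm, Taf15 and Srsf6 higher and Cirbp lower. With limma voom it was Hnrnph3 again. The counts of 0 for the roles below are edgeR's with all 6 libraries.

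**Figure D1:**
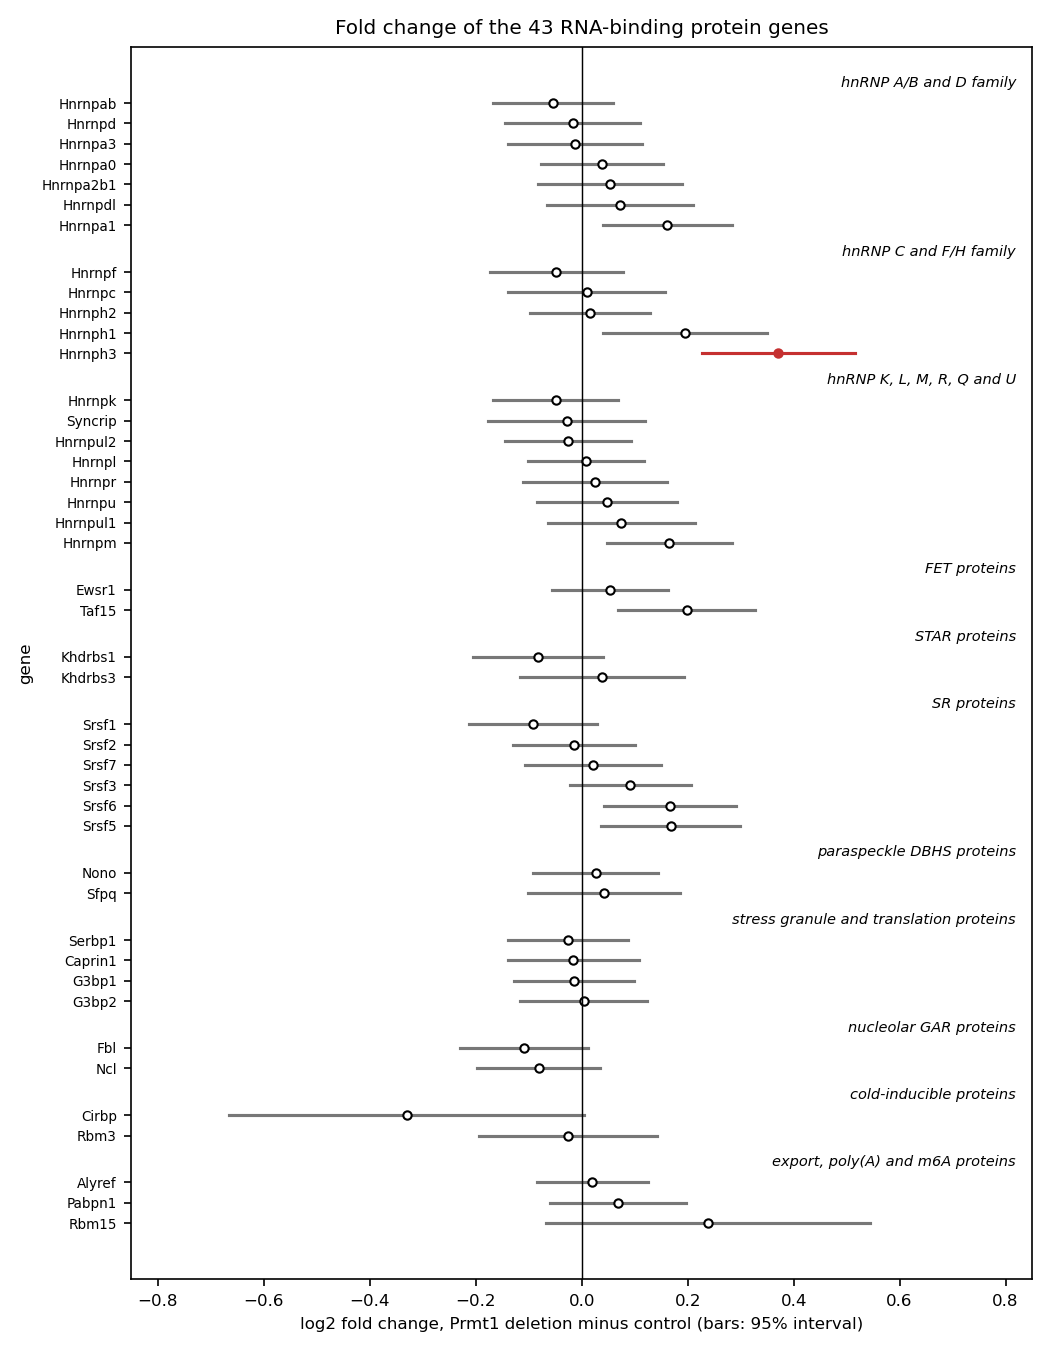
Log2 fold change (deletion minus control) of each of the 43 genes, grouped by role, with 95% intervals as bars. The filled red point passed the threshold, Hnrnph3 at 0.37, and open points did not; the widest intervals belong to Cirbp and Rbm15.

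The hnRNP F/H proteins bind runs of guanines and regulate exon choice near them. Hnrnph3, with 346 codons the shortest of the 4 F/H genes, measured 90.8, 86.4 and 97.7 CPM in controls 212, 213 and 220 and 128.5, 112.9 and 114.0 CPM in deletion 208, 211 and 221. Every deletion library lay above every control, with 208 the highest. Means (SD, n = 3 each) were 91.6 ± 5.70 and 118.5 ± 8.73 CPM, 1.29-fold higher, and the log2 fold change was 0.37 ± 0.07 (SE; adjusted p = 0.00781 in edgeR). With 1 library left out it ranged from 0.31 to 0.42, and it did not pass without control 213 (0.33, edgeR adjusted p = 0.0645). With sex as a covariate, which measures the deletion libraries against control 220, it was 0.28 (edgeR adjusted p = 0.189). Hnrnph3 lies on chromosome 10 from 63014664 to 63024217 (mm10, minus strand) and shares 115 of its 3151 exonic bases with Rufy2 on the other strand. Whether the counting used strand is not given, and the part of Rufy2 reads was not tested. The same limit holds for other genes of the class. In all, 14 of the 43, Hnrnph3 among them, overlap the span of a gene on the other strand. Rufy2 had a log2 fold change of 0.02 (41.0 ± 0.597 and 41.7 ± 1.63 CPM).

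The other genes of this family did not pass. Hnrnph1, the most abundant of the H genes, measured 933, 932.5 and 1012 CPM in controls and 1195, 1092 and 1007 CPM in deletion libraries. Deletion 208 and 211 exceeded every control, and deletion 221 lay just under control 220 (log2 fold change 0.19 ± 0.07, SE; edgeR adjusted p = 0.127). Without deletion 221 it passed (0.25, edgeR adjusted p = 0.0369). Hnrnph2, the X-linked copy, was at 144.2 ± 6.51 and 145.7 ± 3.29 CPM, with a 95% interval of -0.10 to 0.13. Hnrnpf was at 563 ± 27.4 and 545 ± 15.7 CPM (-0.17 to 0.08). Hnrnpc, whose product binds uridine tracts in nascent transcripts, was at 343 ± 22.8 and 346 ± 24.0 CPM (-0.14 to 0.16).

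The hnRNP A/B and D proteins compete with SR proteins at exons and carry glycine-rich tails. Of their 7 genes 0 passed, with log2 fold changes from -0.05 to 0.16. Hnrnpa1, the archetypal splicing silencer of the group, measured 523.9, 492.1 and 539.9 CPM in controls and 572.5, 575.6 and 592.5 CPM in deletion libraries. The groups did not overlap, and the difference of 0.16 ± 0.06 (log2, SE) missed the threshold (edgeR adjusted p = 0.11). Hnrnpa2b1, which encodes proteins of RNA transport granules, measured 1690, 1676 and 1833 CPM in controls and 1894, 1764 and 1738 CPM in deletion libraries. Control 220 lay among the deletion libraries, and the 95% interval ran from -0.08 to 0.19. Hnrnpab, which encodes a protein that binds RNA and single-stranded DNA, was at 549.1, 559.0 and 564.4 CPM in controls and 522.1, 544.9 and 543.8 CPM in deletion libraries. It was lower in each deletion library by a small margin (log2 fold change -0.05, edgeR adjusted p = 0.598). Hnrnpa0, a single-exon relative, was at 509.1, 522.6 and 523.5 CPM against 513.8, 543.7 and 540.1 CPM, with overlapping groups. Hnrnpd, the mRNA decay factor AUF1, and Hnrnpdl had log2 fold changes of -0.02 and 0.07, with overlapping groups.

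Of the 8 genes for hnRNPs K, L, M, R, Q and U, 0 passed. Hnrnpm, whose protein binds intronic GU-rich sites, was at 399.8, 409.3 and 426.1 CPM in controls and 478.0, 456.9 and 450.5 CPM in deletion libraries. Each deletion library exceeded each control (log2 fold change 0.17 ± 0.05, SE; edgeR adjusted p = 0.0915), and control 220 was the control nearest to them. Hnrnpu, the scaffold attachment factor that binds nascent RNA, was at 1060 ± 55.1 and 1095 ± 39.7 CPM. Hnrnpk, which binds C-rich RNA, was at 601 ± 24.2 and 581 ± 2.96 CPM, Hnrnpl, a CA-repeat binder, at 418 ± 8.41 and 421 ± 3.17 CPM, and Hnrnpr at 306 ± 19.3 and 311 ± 14.7 CPM. Syncrip, which encodes hnRNP Q, was at 311 ± 13.6 and 305 ± 25.4 CPM, with deletion 221 the lowest of all at 276.4 CPM. The log2 fold changes of Hnrnpul1 and Hnrnpul2, the hnRNP U-like genes, were 0.07 and -0.03 with overlapping groups.

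The FET proteins link transcription to splicing and carry long RGG domains. Taf15 measured 102.1, 105.9 and 115.1 CPM in controls and 129.4, 118.7 and 122.4 CPM in deletion libraries. The groups did not overlap, and the difference (1.15-fold, log2 fold change 0.20 ± 0.06, SE) did not pass (edgeR adjusted p = 0.0684). Taf15 passed without control 220 (0.25, edgeR adjusted p = 0.0355). The controls left in that fit differ in sex from every deletion library, so it cannot separate sex from deletion. Once sex was part of the model, the Taf15 difference shrank to 0.10. Ewsr1, the gene with the most RGG triplets, was at 451.9, 457.9 and 449.5 CPM against 480.6, 464.5 and 465.3 CPM. Its groups were also apart, by a log2 fold change of 0.05 (95% interval -0.06 to 0.16).

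STAR proteins of the Sam68 family are RGG-bearing splicing regulators. Khdrbs1, which encodes Sam68, was at 333.6, 329.4 and 356.0 CPM in controls and 307.1, 323.9 and 330.9 CPM in deletion libraries, with deletion 221 above control 213 (log2 fold change -0.08, edgeR adjusted p = 0.425). Khdrbs3 was at 33.7, 29.8 and 33.5 CPM against 33.1, 32.6 and 34.0 CPM, with overlapping groups.

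Among the 6 SR genes 0 passed, and 3 were higher in every deletion library and 1 lower (backgrounds 14.1% and 13.5%). Srsf6 measured 604.6, 602.8 and 624.8 CPM in controls and 724.8, 660.7 and 670.4 CPM in deletion libraries (log2 fold change 0.17 ± 0.06, SE; edgeR adjusted p = 0.108). Srsf5 measured 479.9, 465.4 and 448.0 CPM against 554.3, 518.1 and 492.7 CPM (0.17 ± 0.06; edgeR adjusted p = 0.123), and passed without deletion 221 (0.21, edgeR adjusted p = 0.0422). In both genes deletion 208 was the highest library. Srsf3, the smallest SR protein and an export adaptor, was at 506 ± 10.9 and 539 ± 13.7 CPM. Srsf1, a regulator of splicing and translation, lay the other way, at 640.0, 645.8 and 687.7 CPM in controls and 634.7, 612.0 and 604.4 CPM in deletion libraries (log2 fold change -0.09, edgeR adjusted p = 0.362). For Srsf2 and Srsf7 the log2 fold changes were -0.01 and 0.02, with overlapping groups.

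**Figure D2:**
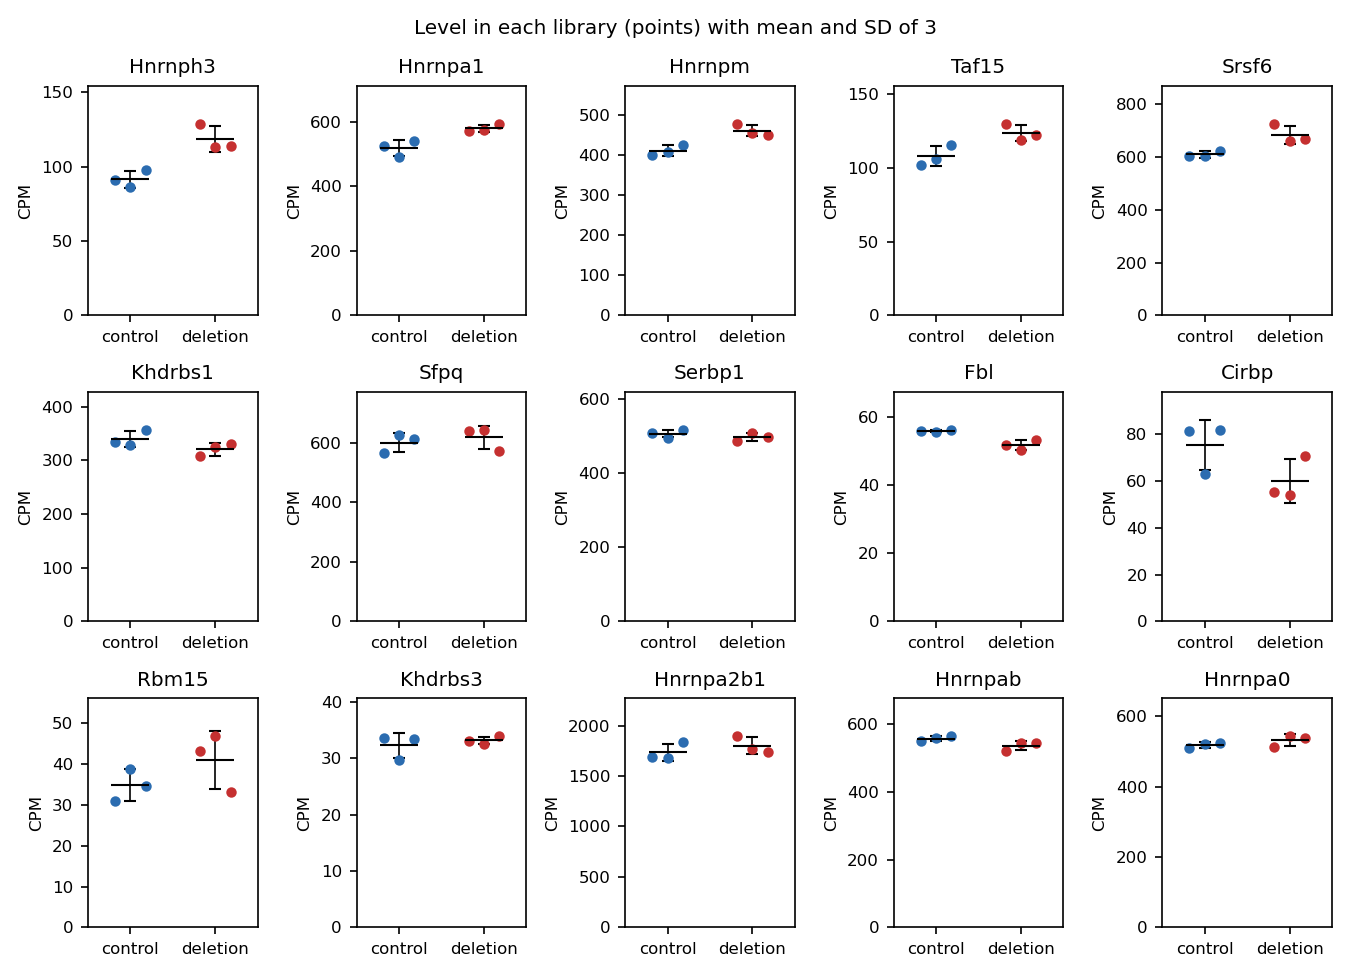
CPM of 15 genes in each library (blue control, red deletion, axes from 0), with mean and SD of 3 as black marks. Hnrnph3, Hnrnpa1, Hnrnpm, Taf15 and Srsf6 lie higher in each deletion library, Fbl and Hnrnpab lower, and the other 8 overlap.

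Fbl and Ncl encode fibrillarin, the methyltransferase of box C/D snoRNPs, and nucleolin, both with a glycine-arginine-rich domain. Fbl was at 56.0, 55.5 and 56.1 CPM in controls and 51.8, 50.2 and 53.4 CPM in deletion libraries. The controls were close together and each deletion library lay below them (1.08-fold, log2 fold change -0.11 ± 0.05, SE; edgeR adjusted p = 0.27). Ncl was at 837.0, 833.3 and 870.0 CPM against 781.0, 809.3 and 810.7 CPM, again without overlap (-0.08 ± 0.05; edgeR adjusted p = 0.408). Neither passed in any of the 14 alternatives.

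Sfpq and Nono, which hold paraspeckles together, were at 600 ± 32.0 and 618 ± 39.3 CPM and at 566 ± 22.3 and 576 ± 6.60 CPM. For Sfpq the libraries were at 564.0, 624.6 and 612.0 CPM in controls and 639.9, 641.5 and 572.7 CPM in deletion. The groups overlapped in both genes.

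The genes of stress granule and translation proteins were the most level. Caprin1 and its partners G3bp1 and G3bp2, which nucleate stress granules, had log2 fold changes of -0.02, -0.02 and 0.00. Serbp1, which encodes a ribosome-bound mRNA-binding protein, was at 507.5, 496.0 and 515.8 CPM against 486.4, 507.4 and 498.9 CPM (-0.03). All 4 intervals lay between -0.14 and 0.12, so none of them reached a change of 1.25-fold.

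Cirbp and Rbm3 are induced by mild cold and protect mRNAs in stressed cells. Cirbp was the gene with the largest difference downward, at 81.4, 63.1 and 81.6 CPM in controls and 55.1, 53.9 and 70.8 CPM in deletion libraries. Control 213 lay below deletion 221, so the groups overlapped, and the interval was wide (log2 fold change -0.33, 95% interval -0.67 to 0.004; edgeR adjusted p = 0.228). Rbm3 was at 313.6, 298.3 and 279.6 CPM against 311.2, 306.4 and 257.9 CPM, lowest in libraries 220 and 221 of their groups.

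Alyref, Pabpn1 and Rbm15 act in mRNA export, poly(A) tail synthesis and the recruitment of the m6A methylation complex. Alyref was at 75.2 ± 0.512 and 76.3 ± 1.39 CPM, and Pabpn1 at 174 ± 4.29 and 183 ± 12.4 CPM. Rbm15, itself a known PRMT1 substrate, was at 31.0, 38.7 and 34.7 CPM in controls and 43.2, 46.8 and 33.1 CPM in deletion libraries. Deletion 208 and 211 exceeded every control and 221 did not (log2 fold change 0.24, 95% interval -0.07 to 0.54; edgeR adjusted p = 0.342). Without 221 it passed (0.37, edgeR adjusted p = 0.0324).

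The fold change did not follow the number of RGG triplets. Across the 43 genes Pearson's r was 0.01 and Spearman's rho -0.11, values that describe these genes only, since all share the same 6 libraries. The median log2 fold change was 0.02 for the 21 genes with 3 or more triplets and 0.01 for the 22 with fewer. Groups did not overlap in 4 higher and 2 lower genes in either set, near the 27.5% of all genes. Taf15 and Ewsr1, with the most triplets, lay above 0, and Fbl and Ncl, with 12 and 9, lay below. Arginine-glycine codon pairs, of which Khdrbs1 held 14 beside 2 triplets, were not compared with the fold change.

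**Figure D3:**
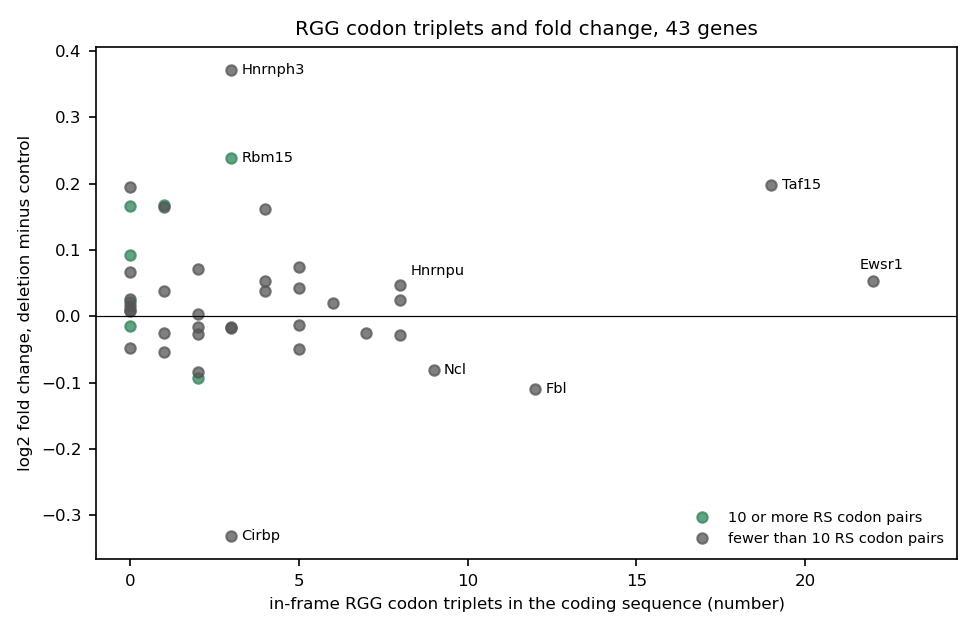
Number of in-frame RGG codon triplets (horizontal) against log2 fold change (vertical) for the 43 genes, with genes of 10 or more arginine-serine codon pairs in green. Genes with few triplets lie on both sides of 0, those with 19 and 22 lie above and those with 9 and 12 below, and the gene that passed, Hnrnph3, has 3.

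Libraries of 1 group differed in the summed level of the class. Over the 43 genes it came to 1.83%, 1.83% and 1.93% of scaled counts in controls 212, 213 and 220 and 1.94%, 1.92% and 1.87% in deletion 208, 211 and 221. Control 220 was the highest library for 20 of the 43 genes (16.4% of all tested genes), and 213 and 212 were the lowest for 15 and 11 (15.5% and 16.4% of all). The median deviation from a gene's mean over the 6 libraries was -0.04, -0.03 and 0.04 (log2) in the controls and 0.02, 0.02 and -0.01 in the deletion libraries, so the controls differed among themselves by more than the groups did. With sex as a covariate the median log2 fold change of the class went from 0.02 to -0.03.

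Several of these genes have processed pseudogenes that hold counts of their own in the table. Annotated pseudogene transcripts with at least 90% identity over at least 50% of a coding sequence numbered 75 for 17 of the 43 genes, and 58 of them have their own row in the table. For Hnrnpa3, 66.3% to 68.4% of the counts of gene plus copies stood on such copies, 27 of which had counts. By group this was 67.8% to 68.4% in controls and 66.3% to 66.8% in deletion libraries, without overlap. The share was 57.6% to 58.7% for Hnrnpa1, 38.4% to 39.9% for Hnrnpk and 32.3% to 36.7% for Fbl, and above 10% for Hnrnpc, Srsf5, Srsf3, Rbm3 and G3bp1. Hnrnph3 and Taf15 had no such copy. For Hnrnpa1 most of the counts in copies stood on Gm10052 (chromosome 9, 123689233 to 123690192, minus strand), which matched the gene over 752 coding bases at 100% identity. The main copy of Fbl, Gm5812 (chromosome 17, 6121208 to 6122164, minus strand), matched at 96.8%. The match of Gm10052 covers 67.2% of the Hnrnpa1 coding sequence and that of Gm5812 100% of Fbl's, and untranslated parts were not compared. The lines show coding bases 1 to 60 of Hnrnpa1 and 274 to 333 of Fbl above the same stretch of the copy. Capitals mark the bases that differ, and the stretches do not stand for the whole transcripts.
Hnrnpa1: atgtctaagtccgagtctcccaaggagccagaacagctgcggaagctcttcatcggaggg
Gm10052: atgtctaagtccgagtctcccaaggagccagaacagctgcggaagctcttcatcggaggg
Fbl: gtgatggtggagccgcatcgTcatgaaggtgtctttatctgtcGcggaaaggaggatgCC
Gm5812: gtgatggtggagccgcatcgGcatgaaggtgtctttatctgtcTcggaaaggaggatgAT
No base differs in the first pair and 4 differ in the second, the stretch of that alignment with the most differences. How reads that match both were divided is not given, so the levels of these genes are uncertain. Fold changes moved less with the counts of copies added to each gene, a setting chosen after seeing the data. The largest shift was from -0.01 to -0.08 (Hnrnpa3). Hnrnph3, whose own counts do not change in that setting, was again the 1 of 43 called (7.04% of all genes). Hnrnpa1 then had 0.15 (edgeR adjusted p = 0.142), Fbl -0.10 and Hnrnpk -0.06.

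**Figure D4:**
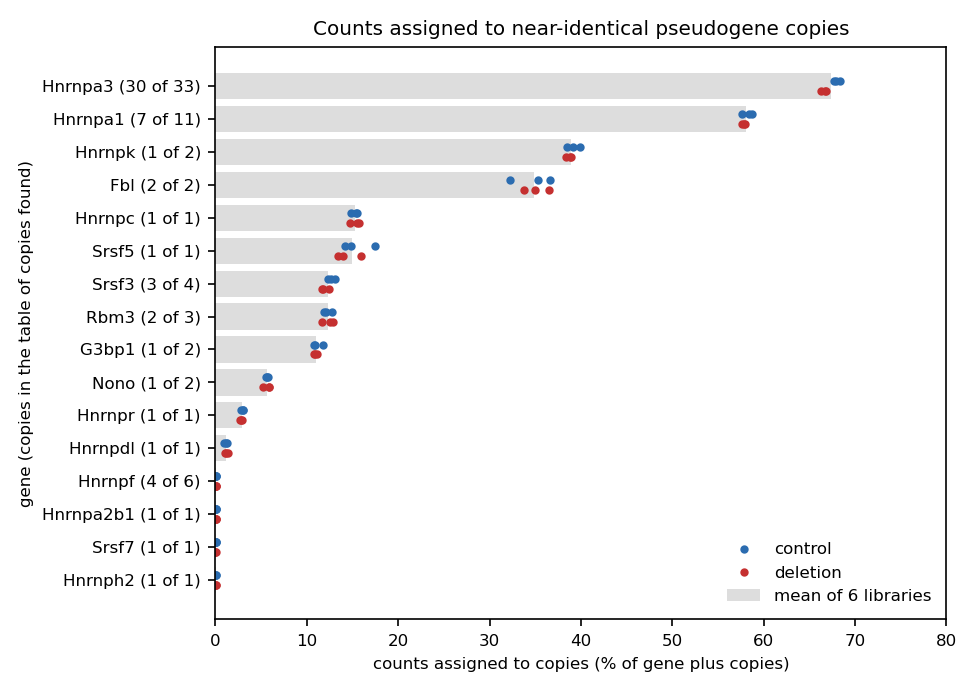
Counts assigned to pseudogene copies as a percentage of gene plus copies, for the 16 genes with a copy in the table. Gray bars are means of 6 libraries and points are libraries (blue control, red deletion); Hnrnpa3 and Hnrnpa1 have more counts on copies than on the gene itself, in every library.

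Levels can be compared between genes only per length. As CPM per kilobase of annotated exons (union over transcripts, mean of 6 libraries), Hnrnpa2b1 was highest at 268, followed by Hnrnpab at 197 and Hnrnpa0 at 196. In controls these were 263 ± 13.1, 200.4 ± 2.78 and 194 ± 3.00 CPM per kilobase, and the groups' values for Hnrnpab and Hnrnpa0 changed places between control and deletion libraries, so their order is not settled. The lowest were Rbm15 at 5.11, Khdrbs3 at 8.95 and Fbl at 12.8. By the length of the longest transcript Hnrnpa2b1 remained first (484) and Rbm15 last (6.35), while Srsf2 came to the next place after Hnrnpa2b1 (235) and Hnrnpa0 to rank 8. On that length Fbl (22.3) left the lowest 3, with Hnrnpr (14.4) and Alyref (21.5) below it. Within the F/H family the union lengths gave 182 for Hnrnpf, 176 for Hnrnph1, 33.3 for Hnrnph3 and 33.2 for Hnrnph2. The order within both pairs turned between the groups: Hnrnpf and Hnrnph1 were at 185 and 164 CPM per kilobase in controls and 179 and 188 in deletion libraries, and Hnrnph3 and Hnrnph2 at 29.1 and 33.0 against 37.6 and 33.4. Counts on copies are not included, so the levels of Hnrnpa3, Hnrnpa1, Hnrnpk and Fbl are uncertain on this scale too.

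The wider RNA-processing machinery was read from 9 further lists with 134 tested genes, none of them among the 43. In them 4 genes rose and 2 fell (background 7.01%). Of 5 other paraspeckle components 1 rose and 1 fell. Neat1, the long noncoding RNA on which paraspeckles are built, measured 38.6, 35.3 and 37.4 CPM in controls and 20.4, 21.2 and 25.7 CPM in deletion libraries. It was lower in each deletion library, 1.65-fold on average (log2 fold change -0.73 ± 0.09, SE; edgeR adjusted p = 0.0016), and it passed in all 14 alternatives. The alternative that adds counts of copies leaves the counts of Neat1 as they are. Poly(A) selection captures mainly the short, polyadenylated form of Neat1. Pspc1, the relative of Sfpq and Nono in paraspeckles, rose from 61.1, 60.02 and 67.4 CPM to 79.8, 79.6 and 79.4 CPM (1.27-fold, edgeR adjusted p = 0.0061). Without control 213 and with sex as a covariate Pspc1 did not pass (0.31 and 0.24, edgeR adjusted p = 0.0515 and 0.168).

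Of 9 SR protein kinases, which control SR proteins by phosphorylation, 1 rose and 1 fell. Srpk3, the kinase of striated muscle, rose from 3.89, 3.33 and 4.77 CPM to 11.4, 11.5 and 7.05 CPM (2.50-fold, edgeR adjusted p = 0.00551). Beside it, 6 of 8 skeletal muscle markers rose, with sums of 277 to 314 CPM in control tissue against 524 to 802 CPM after deletion, and the part of muscle in the Srpk3 value was not tested. Clk3 fell from 77.8, 78.1 and 74.9 CPM to 68.6, 60.9 and 64.6 CPM (1.19-fold, edgeR adjusted p = 0.0255), and did not pass without 212, 213 or 211 (edgeR adjusted p = 0.0731, 0.124 and 0.101).

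Among 28 other hnRNP-related genes, 1 rose: Pcbp4, a poly(C)-binding protein gene, from 111 ± 4.85 to 133 ± 5.18 CPM (log2 fold change 0.26 ± 0.05, SE; edgeR adjusted p = 0.0147). It did not pass without 213 or 208 (edgeR adjusted p = 0.105 and 0.0519). Of 20 export and m6A writer genes, 1 rose, the m6A methyltransferase gene Mettl3, from 35.2 ± 1.45 to 41.4 ± 1.08 CPM (1.18-fold, edgeR adjusted p = 0.0468), and it did not pass when any 1 of the 6 libraries was left out (edgeR adjusted p = 0.0521 to 0.177). In the other 5 lists 0 of 72 genes passed in edgeR or limma voom and 2 with the DESeq2 Wald test. Over all genes the shares were 7.01% in edgeR and 11% with the DESeq2 Wald test. At an unadjusted edgeR p under 0.05, 3 of the 72 were higher and 4 lower, against 22.5% of all genes in either direction. Srrm1 passed without a filter on low counts (edgeR adjusted p = 0.0384), and Srrm1 (edgeR adjusted p = 0.0291) and Sf3a2, named after its values were seen, without deletion 221. Their genes of smallest p were Srrm1 among 12 SR-like genes (log2 fold change 0.20, edgeR adjusted p = 0.0646), Snrnp200 among 28 core snRNP and U2 genes (0.16, 0.129), Dkc1 among 10 snoRNP genes (-0.13, 0.196), Usp10 among 10 stress granule genes (-0.11, 0.207) and Nbas among 12 decay factors (-0.21, 0.0642). With sex as a covariate only Neat1 of the 134 passed.

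**Figure D5:**
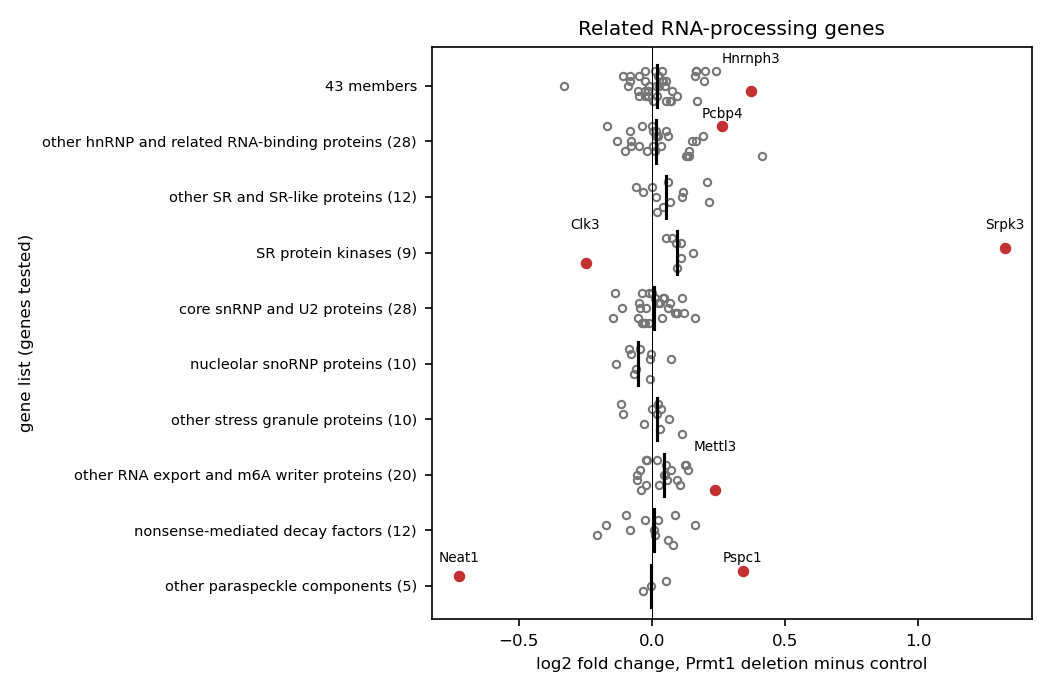
Log2 fold change of the 43 genes and of 9 lists of related genes, with the number tested in brackets. Named red points passed the threshold and open ones did not; a black bar is each list's median, and medians lie between -0.05 and 0.09. Neat1 and Srpk3 lie farthest from 0.

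Markers of other cell types differed between the groups. Beside the muscle genes, 3 of 6 cartilage markers rose (summed 324 to 459 CPM in control and 662 to 732 CPM in deletion tissue) and 4 of 6 epithelium markers fell (971 to 1038 and 573 to 775 CPM). Over all genes 7.01% were called in edgeR, 11% with the DESeq2 Wald test and 22.5% at an unadjusted edgeR p under 0.05. At that unadjusted p, 5 cartilage markers were higher and 1 was lower. The bone markers summed to 975 to 1362 CPM in controls and 258 to 466 CPM in deletion libraries with 0 of 5 tested genes past edgeR's threshold, 4 by the DESeq2 Wald test, 3 by limma voom and 4 at an unadjusted p under 0.05, all lower. Of the neural and Schwann markers 1 of 8 rose in edgeR and in limma voom, 5 passed the DESeq2 Wald test and 6 were higher at an unadjusted p under 0.05, and 0 of the erythroid (10), endothelium (6) and macrophage (6) markers passed in edgeR or limma voom. Of these, 1 endothelium marker passed the DESeq2 Wald test and 4 were lower at an unadjusted p under 0.05. No marker was at 0 in all libraries. The part of these cells in the values of Hnrnph3 and of the related genes was not tested.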

How the data were processed

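The authors deposited 1 table of estimated counts (expected counts) per gene symbol for the 6 libraries, not normalized, in which 23.0% to 23.8% of values per library are not whole numbers. The submitters' processing notes name STAR 2.4.1d, CASAVA 1.8.2, Partek and the build mm10. Counting program, annotation, strand setting and filters: not given in the sources used here. Column names give the group but no sample of it.

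Counts were rounded, filtered with filterByExpr (minimum count 10, minimum total 15), scaled by TMM and tested on all genes with edgeR 4.0.16 (glmQLFit with robust=TRUE, glmQLFTest; R 4.3.3), with Benjamini-Hochberg adjustment at 0.05. Each SE is the log2 fold change over the square root of F. Alternatives used DESeq2 1.42.0, limma 3.58.1, other scalings and filters, sex as a covariate and each library left out. A further alternative, chosen after seeing the data, added the counts of copies to their gene. On simulated data for this comparison (19284 genes), 12% of genes changed 1.2-fold were recovered, 68% at 1.5-fold, 82% at 2-fold and 94% at 4-fold. Beside these were 14 false calls, to be read against the genes called in the simulation and not against all genes. These rates are for the tested genes together. Genes of the class had 1475 or more estimated counts in every library and a median SE of 0.06, so the rates need not hold for them. With that SE, a change as small as most of those seen here would still often be missed. All pairs of libraries within a group differed by more than counting noise (chi-square over degrees of freedom 7.79 to 38.0).

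Coordinates, lengths and coding sequences come from GENCODE M21 on GRCm38, the assembly that mm10 names, with the longest coding sequence per gene. Copies were found with BLAST 2.17.0. The genes and lists were chosen with earlier results of these data known. Named with full values were each gene past the threshold, the gene of smallest p in each role, and the 3 highest and 3 lowest per length, and for each related list the called genes (at most 2, by p) or, with none called, the gene with the lowest p. Hnrnph1, Ewsr1, Srsf1, Srsf5, Ncl and Rbm3, given by library outside this rule, and Rufy2 were added after their values were seen. Counts of codons stand in for the planned count in protein sequences, which were not used here.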

Additional observations from a re-analysis of the deposited data

How the results depend on the processing

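Hnrnph3 had a log2 fold change above 0 in all 14 alternatives and passed in 12. Among these, the setting that adds counts of copies leaves its own counts as they are, since Hnrnph3 has no copy. The number of genes of the class past the threshold, 1 in the comparison as reported, was 6 with the DESeq2 Wald test (Hnrnph3, Hnrnpa1, Hnrnpm, Taf15 and Srsf6 higher and Cirbp lower, where 11% of all genes were called), 2 without a filter on low counts and 0 with sex as a covariate, and ranged from 0 to 4 with 1 library left out. The 6 related genes became 11 with the DESeq2 Wald test and 1 with sex as a covariate, and 2 to 11 with 1 library left out. All genes called became 129 with sex as a covariate, 2125 with the DESeq2 Wald test and 356 to 1872 with 1 library left out. The median log2 fold change of the class was -0.029 with sex as a covariate, a shift larger than the SD between libraries. Prmt1 had -0.24 with sex as a covariate and -0.31 to -0.25 with 1 library left out. In that covariate fit 212 and 213 inform the sex term alone, which leaves 1 control for the comparison. The cause of these changes was not tested. No scaling moved the median of all genes by more than 0.01. No paired analysis was possible because the columns do not carry the replicate numbers of the sample titles. Leaving out a library leaves 2 in its group.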
